A study of Homo sapiens with 5 samples.

Results

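The IL-1 and IL-18 cytokine family was followed here through 10 genes, of 18417 genes that had a row of their own on the array. They are the ligands IL18, IL1A, IL1B and IL33, the inhibitors IL1RN and IL18BP, and the receptor chains IL1R1, IL1RAP, IL1RL1 and IL18R1. The set was drawn up with the difference between TIP-1 shRNA and control arrays already known, the question being whether IL18 was higher alone in its family, so the values of these 10 genes are given as a description with no test. Each member had 1 row, found by its annotated symbol.

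The cells were D54, an established human glioma line, in 2 groups. Different shRNAs against TIP-1 gave 1 array each (TIP-1 shRNA 1, 2 and 3, n = 3), and 2 independent clones carrying a control shRNA gave 1 array each (control 1 and 2, n = 2). TIP-1 is a small PDZ domain protein encoded by TAX1BP3. All cells had been transfected with an shRNA and were grown overnight after trypsin treatment; no untransfected cells and no technical replicates were included. Because each TIP-1 array carries its own shRNA and each control is 1 clone, the spread within a group is the spread between shRNAs or between clones. In these bulk samples, fewer cells expressing a gene and less RNA per cell cannot be told apart.

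Cytokines of this family are made as precursors without a classical secretion signal. IL-1β and IL-18 are cut to their active form by caspase-1 in inflammasomes, IL-1α is active as a precursor, and IL-33 is a nuclear protein released from damaged cells. IL-1 binds IL1R1 together with the shared accessory chain IL1RAP, IL-33 binds IL1RL1 with the same accessory chain, and IL-18 binds IL18R1 with IL18RAP. All these receptors signal through the adaptor MYD88 and IRAK kinases to NF-κB. IL1RN is a receptor antagonist of IL-1, and IL18BP is a secreted decoy that captures IL-18. The array measures transcripts only, so neither the cleavage nor the release of a cytokine was observed.

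Among the 10 genes, IL18 was the one with a clear gap between the groups: TIP-1 shRNA arrays read 1.70-fold higher. It read 9.53, 9.56 and 9.49 log2 units with TIP-1 shRNA 1, 2 and 3, against 8.73 and 8.79 in controls 1 and 2. The groups did not overlap, and the lowest TIP-1 shRNA array stood 0.70 log2 units above the higher control, while the arrays within a group spanned 0.07 (TIP-1 shRNA) and 0.06 (control) log2 units. Mean levels were 9.52 ± 0.04 (SD, n = 3) with TIP-1 shRNA and 8.76 ± 0.04 (SD, n = 2) in controls, a log2 difference of 0.77 (SE 0.08). The 3 shRNAs gave nearly the same size of difference, at 0.77, 0.80 and 0.73 log2 units from the control mean.

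**Figure D1:**
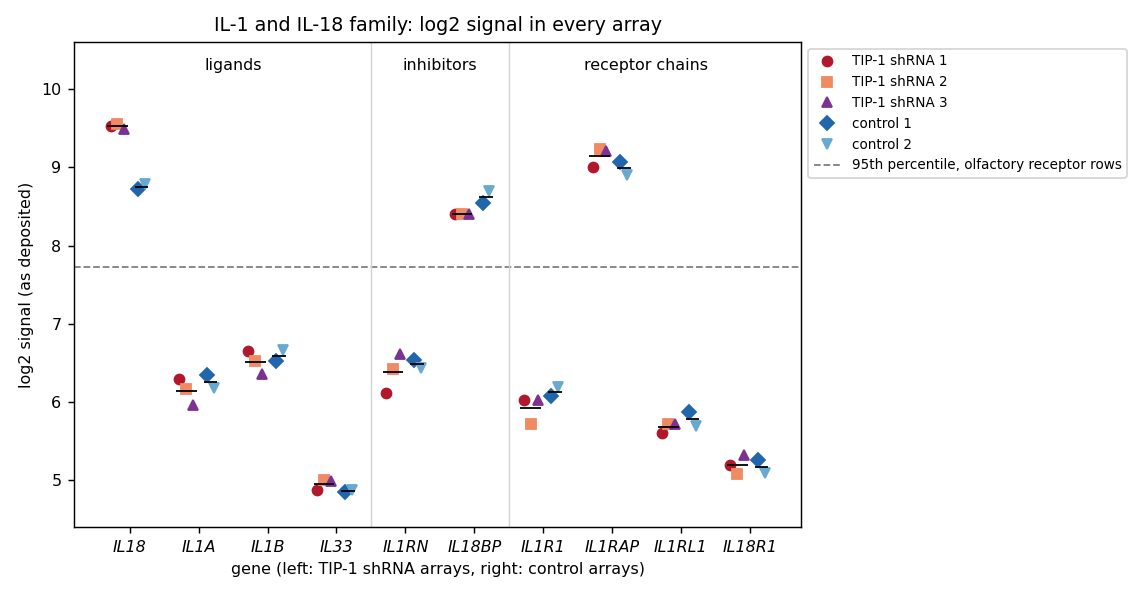
Log2 signal of the 10 family members in every array, with TIP-1 shRNA arrays to the left and control arrays to the right within each gene. Short black lines are group means, and the dashed line is the 95th percentile of olfactory receptor rows (7.73); the height of a point can be read within a gene but not between genes, whose probes differ. IL18 at 9.49 to 9.56 with TIP-1 shRNA, against 8.73 and 8.79 in controls, is the member with a wide gap.

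How far a row stood above the dim end of the array was judged from 361 olfactory receptor genes, which glioma cells are not expected to transcribe. Their mean signals had a median of 6.50 and a 95th percentile of 7.73 log2 units, with the highest at 9.81. Of the members, 3 lay above that 95th percentile, namely IL18, IL18BP and IL1RAP, and 7 lay inside the range below it. No detection calls came with the values, so none of these rows can be described as off.

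The other ligands were dim and differed little. IL1A, the membrane-associated form of IL-1, read 6.29, 6.17 and 5.96 log2 units with TIP-1 shRNA 1, 2 and 3 and 6.34 and 6.18 in controls 1 and 2. IL1B, the main secreted form, read 6.65, 6.52 and 6.36 with TIP-1 shRNA, against 6.52 and 6.66 in controls. The groups overlapped for both genes, and in both the shRNA 3 array was the lowest of the 5. Their log2 differences were -0.12 (SE 0.12) for IL1A and -0.08 (SE 0.11) for IL1B. With 1 array left out, IL1A ran from -0.20 (without control 2) to -0.03 (without shRNA 3) and IL1B from -0.15 (without shRNA 1 or control 1) to -0.0016 (without shRNA 3).

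IL33 read 4.88, 5.00 and 4.99 log2 units with TIP-1 shRNA and 4.85 and 4.87 in controls. All 3 TIP-1 shRNA arrays lay above both controls, but the lowest of them cleared the higher control by only 0.01 log2 units, on a dim row. Its log2 difference was 0.09 (SE 0.08), and the separation was lost with quantile normalization.

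Of the inhibitors, IL18BP was somewhat lower. It read 8.41, 8.40 and 8.41 log2 units with TIP-1 shRNA, against 8.54 and 8.70 in controls. The groups did not overlap, and the 3 shRNA arrays were closer to one another than the 2 controls were. Its log2 difference was -0.21 (SE 0.09), or 1.16-fold lower. Because the controls differed by 0.16, the value depended on which one was used: it was -0.29 without control 1 and -0.13 without control 2. IL18, the ligand that IL18BP captures, and IL18BP thus stood on opposite sides of the controls, with a much smaller difference for the decoy. IL1RN read 6.12, 6.42 and 6.61 with TIP-1 shRNA, against 6.54 and 6.44 in controls. Here shRNA 1 gave the lowest array and shRNA 3 the highest of all 5, so the log2 difference of -0.11 (SE 0.15) has no shared direction behind it, and it turned to 0.02 without shRNA 1.

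Among receptor chains, the IL-1 receptor IL1R1 read 6.03, 5.72 and 6.02 log2 units with TIP-1 shRNA and 6.08 and 6.19 in controls. All TIP-1 shRNA arrays lay below both controls, the lowest being shRNA 2, and the log2 difference was -0.21 (SE 0.12). It came to -0.11 without shRNA 2, and the groups overlapped after quantile normalization or median centring. The row is dim.

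IL1RAP, the accessory chain shared by the IL-1 and IL-33 receptors, read 9.0, 9.23 and 9.21 log2 units with TIP-1 shRNA and 9.07 and 8.90 in controls. The shRNA 1 array lay between the controls, and the log2 difference was 0.16 (SE 0.11). It came to 0.23 without shRNA 1, 0.24 without control 1 and 0.08 without control 2. The IL-33 receptor IL1RL1 read 5.61, 5.72 and 5.72 with TIP-1 shRNA, against 5.87 and 5.70 in controls, and the groups overlapped (log2 difference -0.11, SE 0.09; -0.02 without control 1 and -0.19 without control 2). The ligand-binding chain of the IL-18 receptor, IL18R1, read 5.20, 5.08 and 5.32 with TIP-1 shRNA, against 5.26 and 5.09 in controls. It too overlapped and showed a log2 difference of 0.02 (SE 0.11), which was -0.04 without shRNA 3 and -0.06 without control 2. IL18 was thus higher without a like difference in either ligand-binding receptor chain of IL-18 or IL-33, both on dim rows.

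**Figure D2:**
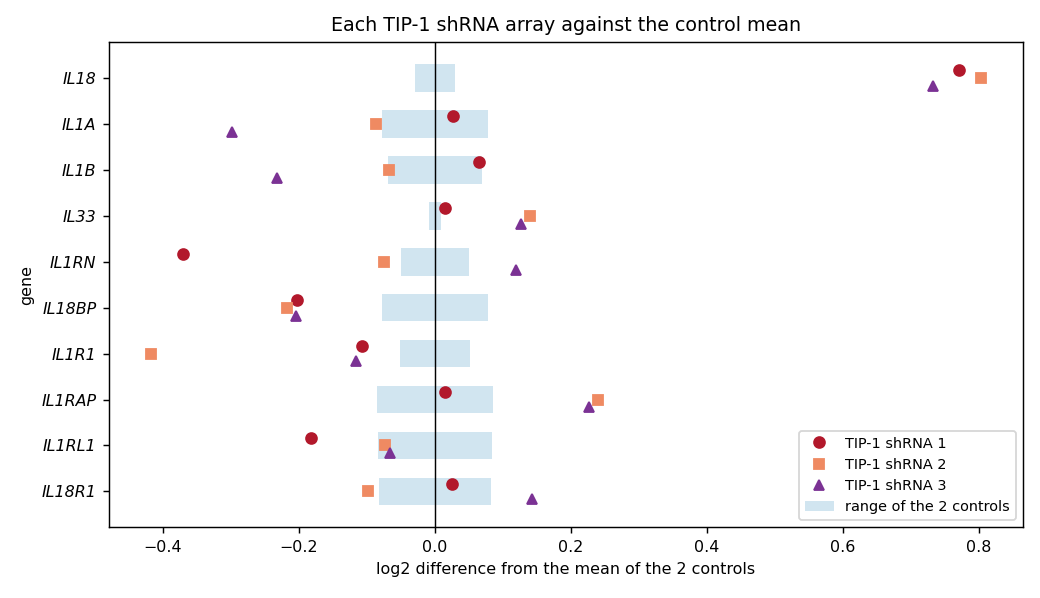
Log2 difference of each TIP-1 shRNA array from the mean of the 2 controls for the 10 members, with the bar showing the range of the 2 controls about their mean. The IL18 points lie at 0.73 to 0.80; in no other member do the 3 points lie together at such a distance from the control bar.

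As a set, 4 members were higher and 6 lower in mean signal. In 2 members (IL18 and IL33) all 3 TIP-1 shRNA arrays lay above both controls, and in 2 (IL1R1 and IL18BP) all lay below. Over all genes, 12.5% were separated upwards and 14.1% downwards in the same way. The median log2 difference was -0.09 over the 10 members and -0.11 without IL18, against -0.01 over all 18417 genes. The value over all genes takes in bright and dim rows alike, while 7 of the members were on dim rows. The differences of the other 9 members ran from -0.21 to 0.16. In the limma fit over all 33297 rows, 0 of the 10 members were called at an adjusted p under 0.05, against 0.003% of all rows. Since these members were chosen on this contrast, the counts are given as a description.

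Against the whole array, 38 other genes had a log2 difference at least as high as that of IL18, which puts it at percentile 99.8 of the 18417 genes. A gap of 0.70 log2 units or more between the lowest TIP-1 shRNA array and the higher control was seen in 8 other genes. Whether the difference of IL18 departs from that of the other members was not tested.

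**Figure D3:**
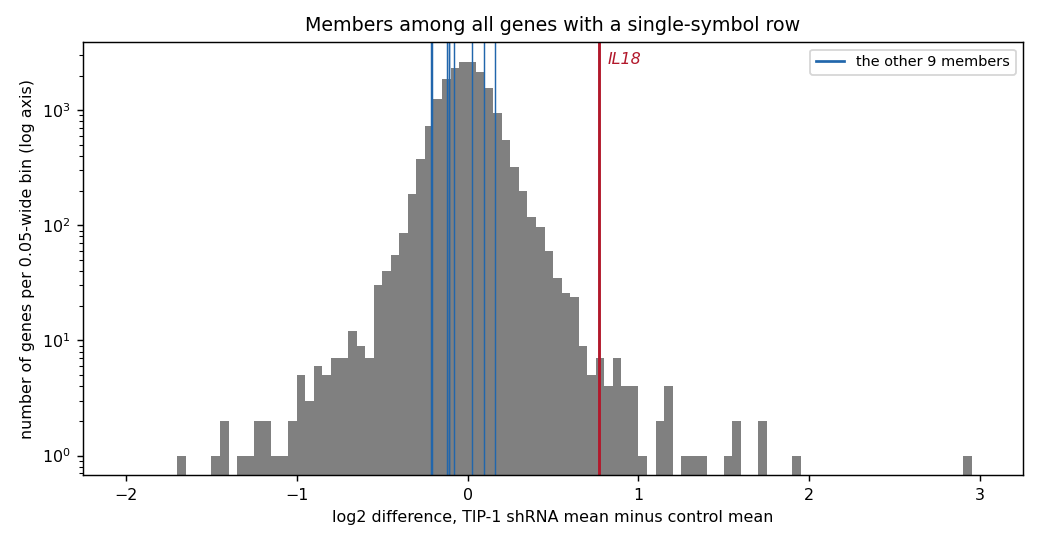
Number of genes by log2 difference, TIP-1 shRNA mean minus control mean, over 18417 genes in bins of 0.05 log2 units, on a log axis. The red line is IL18 at 0.77 and the blue lines are the other 9 members, which lie between -0.21 and 0.16.

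The remaining genes of the family, 12 ligands and receptor chains outside the 10 members, were all measured. None passed (0 higher and 0 lower, limma adjusted p under 0.05; the smallest adjusted p was 0.707, and 0 higher and 2 lower had an unadjusted p under 0.05). Of the 12, 3 were higher and 9 lower in mean signal, with a median log2 difference of -0.12. The groups were separated downwards in 5 and upwards in 0. Over all genes, 14.1% were separated downwards and 12.5% upwards, and 6.02% had a limma unadjusted p under 0.05. Those shares take in bright and dim rows alike, while 2 of these 12 rows lay above the olfactory receptor range. The share among dim rows alone was not taken.

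IL1RAPL1, a receptor-like chain known for its part in synapse formation, had the largest difference of these genes. It read 8.66, 8.27 and 8.52 log2 units with TIP-1 shRNA, against 9.13 and 9.24 in controls, with no overlap. Its log2 difference was -0.70 (SE 0.13, 95% interval -1.02 to -0.38, limma adjusted p = 0.707), so it did not pass. IL1R2, a decoy receptor that binds IL-1 without signalling, read 6.88, 6.50 and 6.55 with TIP-1 shRNA and 7.0 and 7.13 in controls. Again the groups did not overlap, with a log2 difference of -0.42 (95% interval -0.75 to -0.09, limma adjusted p = 0.707). Its row lies in the olfactory receptor range.

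The IL-36 ligands IL36G (-0.22, SE 0.11), IL36B (-0.16, SE 0.09) and IL36A (-0.11, SE 0.12), the IL-36 receptor antagonist IL36RN (-0.11, SE 0.11) and the related IL1F10 (-0.17, SE 0.10) had small negative log2 differences. All 5 rows are dim. For IL36G, IL36B and IL1F10 the groups did not overlap, with TIP-1 shRNA lower. Their sizes depended on single arrays: IL36G ran from -0.36 (without control 1) to -0.09 (without control 2), IL36B from -0.25 (without control 2) to -0.08 (without control 1) and IL1F10 from -0.23 (without control 2) to -0.10 (without shRNA 3). The IL-36 receptor IL1RL2 differed by -0.05 log2 units and IL1RAPL2 by -0.12. Above zero were the second IL-18 receptor chain IL18RAP (0.06, SE 0.09), the inhibitory receptor SIGIRR (0.08, SE 0.14) and the anti-inflammatory ligand IL37 (0.04, SE 0.12), all within their overlap with the controls. The array medians were 7.95, 7.90 and 7.88 log2 units with TIP-1 shRNA 1, 2 and 3 and 7.96 and 7.98 in controls. Lower quartiles were also lower, at 6.42, 6.40 and 6.35 with TIP-1 shRNA against 6.45 and 6.44 in controls. Upper quartiles were higher, at 9.79, 9.80 and 9.83 with TIP-1 shRNA against 9.77 in both controls. Median centring adds the same 0.06 log2 units to the difference of every gene. Small negative differences therefore came nearer zero by construction. With quantile normalization and median centring, IL36RN came to -0.03 and -0.05, IL36A to -0.05 and -0.05, and IL1F10 to -0.10 and -0.11.

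The machinery that matures or releases these cytokines was measured for 21 of 23 listed genes. None passed (limma, 0 higher and 0 lower; 1 higher and 0 lower at an unadjusted p under 0.05), and the median log2 difference was -0.04. The groups were separated upwards in 2 genes and downwards in 3, against 12.5% and 14.1% of all genes. A limma unadjusted p under 0.05 was seen in 6.02% of all genes. The protease calpain 1, CAPN1, whose class cuts the IL-1α precursor, read 10.93, 11.01 and 11.10 log2 units with TIP-1 shRNA, against 10.78 and 10.77 in controls. Its log2 difference was 0.24 (SE 0.09, 95% interval 0.02 to 0.45, limma adjusted p = 0.707). CARD16, a decoy related to caspase-1, read 5.22, 5.58 and 6.13 with TIP-1 shRNA and 5.13 and 5.21 in controls, on a dim row. The shRNA 3 array was the highest, and the log2 difference of 0.47 (SE 0.25) was 0.23 without it. The mast cell protease CMA1 (-0.24, SE 0.13; -0.39 without control 1 and -0.08 without control 2) and the inflammatory caspase CASP5 (-0.13, SE 0.09) were next by unadjusted p.

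Caspase-1 itself, named here for its role and outside the naming rule, showed no shared direction. CASP1 read 5.76, 5.71 and 6.18 log2 units with TIP-1 shRNA, against 6.04 and 5.74 in controls, on a dim row (log2 difference -0.01, 95% interval -0.43 to 0.42).

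Signalling genes downstream of the receptors were measured for 27 of 31 listed. None passed (limma, 0 higher and 0 lower; 1 higher and 0 lower at an unadjusted p under 0.05), the median log2 difference was 0.03, and the groups were separated upwards in 5 and downwards in 3. Over all genes, 12.5% were separated upwards, 14.1% downwards, and 6.02% had a limma unadjusted p under 0.05. The signalling gene with the smallest unadjusted p was MYD88, the adaptor used by the IL-1, IL-18 and IL-33 receptors. MYD88 read 10.42, 10.44 and 10.09 log2 units with TIP-1 shRNA, against 9.75 and 9.87 in controls, with no overlap. Its log2 difference was 0.51 (SE 0.13, 95% interval 0.19 to 0.82, limma adjusted p = 0.707), smaller with shRNA 3 (0.28 from the control mean) than with shRNA 1 (0.61) or 2 (0.63). The kinase CHUK (0.21, SE 0.09), the ubiquitin ligase PELI1 (0.31, SE 0.15; 0.17 without shRNA 3; a dim row) and the NF-κB inhibitor NFKBIB (0.21, SE 0.11; 0.06 without control 1 and 0.35 without control 2) followed, each with all TIP-1 shRNA arrays above both controls and none past the threshold.

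Genes that IL-1 is known to induce were measured for 31 of 33 listed. None passed (limma, 0 higher and 0 lower; 1 higher and 1 lower at an unadjusted p under 0.05), and the median log2 difference was -0.02, with 15 higher and 16 lower. The groups were separated upwards in 4 and downwards in 4, against 12.5% and 14.1% of all genes. A limma unadjusted p under 0.05 was seen in 6.02% of all genes. The neutrophil chemokine CXCL8 read 7.30, 7.21 and 7.17 log2 units with TIP-1 shRNA, against 7.82 and 7.70 in controls, with its mean inside the olfactory receptor range. The cytokine LIF read 9.96, 10.05 and 9.83 with TIP-1 shRNA, against 9.49 and 9.21 in controls. These 2 targets differed in opposite directions, at -0.54 and 0.60 log2 units, and both were known from earlier work on these data. The hyaluronan-binding TNFAIP6 (0.20, SE 0.10; 0.31 without control 1 and 0.10 without control 2; a dim row) and the iron-siderophore binder LCN2 (-0.18, SE 0.09) were next.

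**Figure D4:**
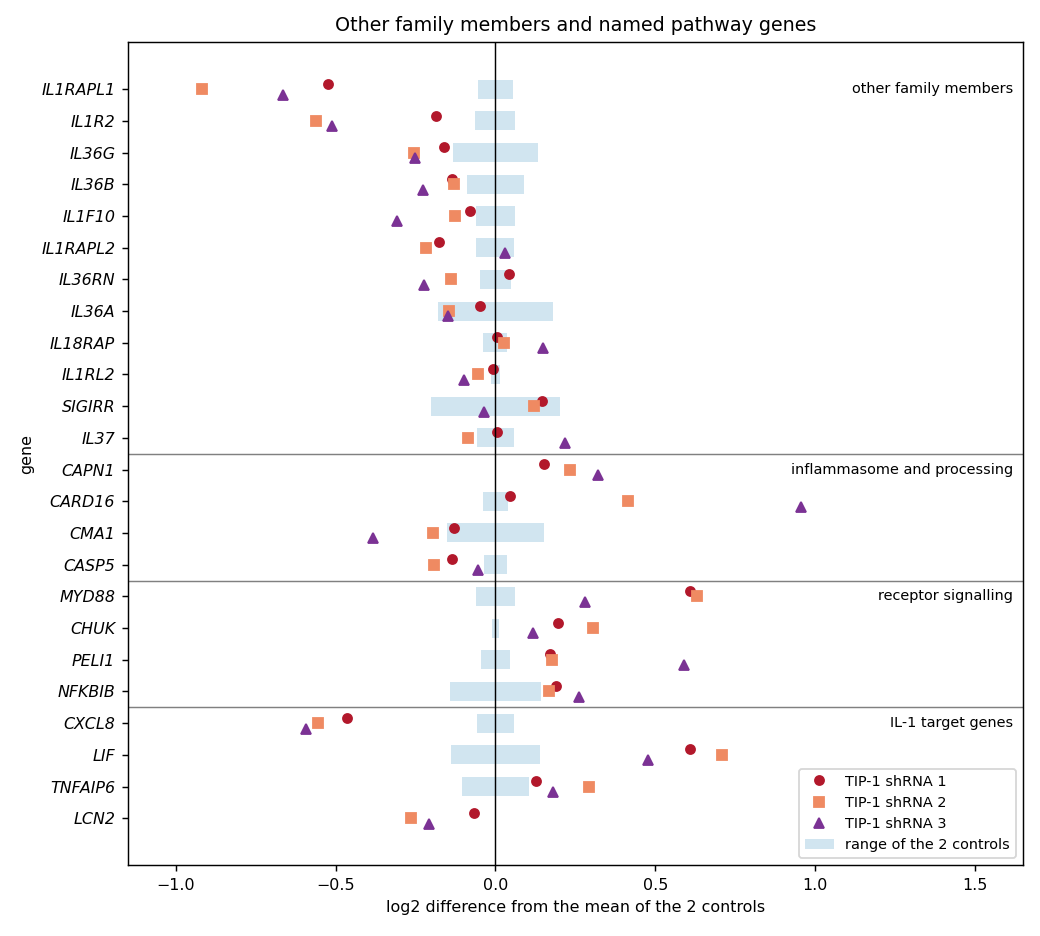
Log2 difference of each TIP-1 shRNA array from the mean of the 2 controls for the 12 other family members and for the 4 genes with the smallest unadjusted p in each pathway list; bars show the range of the 2 controls. IL1RAPL1 and CXCL8 lie below the controls in all 3 arrays, and MYD88 and LIF above.

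Genes next to IL18 on chromosome 11 differed far less than IL18. In the gene order of the reference table, the 3 nearest measured protein-coding genes on either side are NKAPD1, TIMM8B and SDHD, and TEX12, BCO2 and PTS. In the brightest row of each gene, log2 differences ran from -0.08 to 0.20, with 0 past the limma threshold and 0 at an unadjusted p under 0.05. SDHD, a subunit of the mitochondrial succinate dehydrogenase, read 11.12, 11.24 and 11.30 log2 units with TIP-1 shRNA, against 10.97 and 11.11 in controls. A second, dimmer SDHD row gave a log2 difference of 0.17 (SE 0.10) with overlapping groups. The identifier of this dimmer row falls between those of NKAPD1 and TEX12, while that of the brighter row does not. The brighter row may therefore not report the gene next to IL18. PTS, an enzyme of tetrahydrobiopterin synthesis, read 9.52, 9.62 and 9.52 with TIP-1 shRNA, against 9.38 and 9.33 in controls. PTS was separated upwards by 0.14 log2 units, against 0.70 for IL18. SDHD was separated, by 0.01, in its brighter row only. Over all genes, 12.5% were separated upwards. Over the 43 distinct neighbours of all members, differences ran from -0.42 to 0.76, with 0 past the threshold. A limma unadjusted p under 0.05 was seen in 4 of the 43 and in 6.02% of all genes. At the ends of the range were IL1R2, next to IL1R1, and the tight junction gene CLDN1, near IL1RAP, which was named after its value was seen.

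The 5 genes whose pattern over the 5 arrays was most like that of IL18 were taken by the smallest Euclidean distance between mean-centred log2 signals. The nearest was PTPRB, a receptor tyrosine phosphatase known from endothelium, at a distance of 0.14 log2 units. It read 9.21, 9.26 and 9.26 with TIP-1 shRNA, against 8.30 and 8.44 in controls. Next came the junction protein plakoglobin, JUP (distance 0.25), PRR16 (0.28), the voltage-gated potassium channel KCNH1 (0.29) and SH3TC2, a gene mutated in an inherited neuropathy (0.29). JUP read 10.36, 10.54 and 10.39 with TIP-1 shRNA, against 9.79 and 9.94 in controls. These genes were picked for their values on the same 5 arrays, so their likeness to IL18 is a description.

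For the series as a whole, the row of the silenced gene TAX1BP3, which is also annotated to a read-through transcript, read 9.81, 9.61 and 9.55 log2 units with TIP-1 shRNA, against 12.05 and 12.10 in controls. Across all 33297 rows it was the single row called by limma (adjusted p = 0.011, log2 difference -2.42), but it no longer passed when shRNA 2, control 1 or control 2 was left out, although the difference was about as large (-2.39, -2.45 and -2.39). Of the 12 glioma and astrocyte markers, 6 lay above the 95th percentile of olfactory receptor rows (VIM, CD44, SOX9, EGFR, NES and GFAP) and 6 inside that range (SOX2, OLIG2, PDGFRA, S100B, FABP7 and CHI3L1). In mean signal 5 were higher and 7 lower, and 0 passed. Of the 12 microglia and macrophage markers, cells known to make much IL-1β and IL-18, 2 were higher and 10 lower in mean signal, 4 lay above the olfactory receptor range, and 0 passed. Their mean signal was 7.15 to 7.36 with TIP-1 shRNA and 7.34 to 7.42 in controls. PTPRC varied most among them and weighs on this mean. It read 8.39, 7.75 and 6.84 with TIP-1 shRNA 1, 2 and 3, against 8.65 and 7.32 in controls. The mean of the 9 measured lymphocyte markers was 6.87 to 6.98 with TIP-1 shRNA and 7.06 to 7.07 in controls. Lower mean signals were also the majority among lymphocyte (9 of 9), endothelial (6 of 8), epithelial (6 of 8) and fibroblast markers (7 of 8). Over all genes, bright and dim together, 9659 of 18417 were lower. Of the 9 lymphocyte markers, 1 lay above the olfactory receptor range. The dim end of the arrays read lower with TIP-1 shRNA, with lower quartiles of 6.35 to 6.42 against 6.44 and 6.45 in controls. What this shift adds to the marker counts was not tested. Markers of endothelium, epithelium and fibroblasts had median log2 differences of -0.06, -0.07 and -0.08, with 0 past the threshold; 1, 5 and 5 of 8 lay above the olfactory receptor range. The markers that differed most, named after their values were seen, were EPCAM (-0.53, SE 0.19, a dim row) and PDGFRB (0.50, SE 0.30, and 1.14 with shRNA 3), both with separated groups. The identifier of the EPCAM row falls between those of NFKB1 and KDR, and whether this row reports EPCAM itself was not checked.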

How the data were processed

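RNA of 5 D54 samples was measured on Affymetrix whole-transcript arrays, 1 per sample. Although an exon array is named in the design text, row identifiers match the gene-level annotation (Human Gene ST), so each row was read as 1 value per transcript cluster; what the authors' tool summarised into a row is not stated. The authors processed the arrays with the Affymetrix Exon Array Computational Tool, per the series' design text; for its version, background correction, probe summary, normalization and genome build, the sources used here give nothing. The deposited values are log2 signals and were used as deposited. Rows were named through the platform annotation, which can be old: 19460 had 1 symbol, 1754 several and 12083 none, and 19429 single-symbol rows matched the gene table of assembly GRCh38.p14, used for names and gene order only. The brightest row (highest mean over 5 arrays) stood for each gene. Whether that row lies at the gene it is annotated to was not checked.

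All 33297 rows were fitted with limma 3.58.1 in R 4.3.3 (TIP-1 shRNA minus control shRNA, lmFit and eBayes, two-sided, Benjamini-Hochberg over all rows, threshold 0.05). The fit was run on 10 simulated sets with 200 changed rows each. It recovered 71% of rows changed by 1 log2 unit and 96.9% of rows changed by 2. False calls averaged 10.7 per set. The simulated spread came from limma's prior, and 200 changed rows ease the adjusted threshold, so these shares do not carry over to the deposited values. There, AKR1C2 (log2 difference -1.50), AKR1C1 (-1.42) and ANXA3 (-1.41) were among the genes that did not pass. Changes under 1 log2 unit were not simulated, so a gene that did not pass may still differ. SEs and 95% intervals are limma's. With 2 against 3 arrays an exact permutation test cannot go below p = 0.1, so none was run. The number of arrays limits the precision. Alternatives were quantile normalization, median centring, bright rows only, a trended robust fit, array weights, a replicate block, all rows per gene and leaving out each array.

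The members and lists were chosen with earlier results of these data known. Named genes were all members, TAX1BP3, all other family members, the 4 genes with the smallest unadjusted p in each other pathway list, the 3 measured neighbours on either side of IL18 and the 5 genes most like it. Of the pathway lists, NLRP1, CARD17, IRAK4, TAB1, MAP2K7, MAPK14, CSF2 and BIRC3 had no single-symbol row and were not analysed here.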

Additional observations from a re-analysis of the deposited data

How the results depend on the processing

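The log2 difference of IL18 was 0.77 as deposited, 0.76 with quantile normalization, 0.83 with median centring, 0.79 with the replicate block and 0.74 to 0.80 when 1 array was left out, and its groups stayed separated in each setting without the block. Median centring raised the difference of every gene by the same 0.06 log2 units. Members separated upwards numbered 2, but 1 with quantile normalization (IL33 lost) and 2 to 3 with 1 array left out. Members separated downwards numbered 2, but 1 with quantile normalization, 1 with median centring (IL1R1 lost in both) and 2 to 4 with 1 array left out, 4 being without control 2. The members' median of -0.09 was -0.0976 to -0.0237 with 1 array left out, and that without IL18, -0.11, was -0.131 to -0.0365; the replicate block gave -0.0365 for it. Using all rows of a gene changed nothing for the members, which have 1 row each.

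Rows past the threshold numbered 1, but 2 with array weights, 15 with the replicate block, and 0 to 6 with 1 array left out. In fits with 1 control, its spread is taken from the TIP-1 shRNA group. The TAX1BP3 call was lost without shRNA 2, control 1 or control 2 (limma adjusted p 0.129, 0.386 and 0.387). No gene of the 4 pathway lists or neighbour of a member was called in any setting run. The replicate block uses the numbers in the labels. Deviations from the group means correlated at r = 0.049 between shRNA 1 and control 1 and at -0.053 between shRNA 2 and control 2, which does not make them pairs, and with the block shRNA 3 adds nothing to the difference.

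Small differences changed sign. IL37 became -0.0410 with the replicate block and -0.0342 with array weights, and IL1RL2 became 0.00828 with median centring. With 1 array left out, IL37 ran from -0.0410 (without shRNA 3) to 0.110, IL36A from -0.294 to 0.0675 (without control 1), SIGIRR from -0.125 (without control 1) to 0.279, TIMM8B from -0.127 (without control 1) to 0.401, NKAPD1 from -0.00123 (without control 2) to 0.131 and BCO2 from -0.199 to 0.0388 (without control 2). IL37 was also negative without control 2, at -0.0125. Of the members, IL1RN turned to 0.0218 without shRNA 1, and IL18R1 to -0.0365 with the replicate block or without shRNA 3 and to -0.0592 without control 2. The cause was not tested. Of 403 values of single genes under the alternatives, 387 kept their direction and side of the threshold, or, for members, their value within 1 SD.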

Other observations

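The 3 shRNAs were close to each other for IL18 but not for some of the receptor signalling genes. In 6 of 27 receptor signalling genes (22.2%), the shRNA 1 and 2 arrays lay below both controls and the shRNA 3 array above both; this held for 5.42% of all genes, and the opposite arrangement for 0 of the 27 and for 5.00% of all genes. The 6, named after their values were seen, were IRAK2, TAB3, NFKB2, NFKBIA, MAP2K4 and MAP2K6. For some the margins were narrow. TAB3 read 10.66 and 10.65 with shRNA 1 and 2, against 10.69 in both controls. MAP2K4 read 10.05 and 10.04 with shRNA 1 and 2, against 10.09 and 10.08 in controls. The MAP2K6 row is dim. The other listed NF-κB subunits, NFKB1, RELA, RELB and REL, did not have this arrangement. NFKB2, the precursor of the p52 subunit, read 8.89, 8.85 and 10.14 log2 units with TIP-1 shRNA 1, 2 and 3, against 9.52 and 9.15 in controls. NFKBIA, an inhibitor that NF-κB itself induces, read 9.97, 10.01 and 10.96 with TIP-1 shRNA, against 10.39 and 10.52 in controls. Their log2 differences between the groups were -0.04 (SE 0.40) and -0.14 (SE 0.30).

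Among the IL-1 target genes, 3 of 31 (9.68%) had this arrangement (SOD2, SAA1 and SAA2) and 3 the opposite one. SOD2, a mitochondrial antioxidant enzyme, read 8.81, 8.83 and 9.68 with TIP-1 shRNA, against 9.47 and 9.19 in controls. IL1RN was the 1 of the 10 members with this arrangement. Among the 12 other family members it held for 0. Among the 21 inflammasome and processing genes it held for 1 (4.76%), and the opposite one for 1. Each shRNA has 1 array, so the split carries no test.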
